A study of Mus musculus with 6 samples.

Results

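Pi16/Mfap5 fibroblasts were described in the bladder mucosa of healthy mice and of mice injured with cyclophosphamide (CPP), a chemotherapeutic whose metabolites damage the urothelium. They were picked from 55399 cells with over 500 detected genes in 6 single-cell libraries by raw counts of unique molecular identifiers (UMIs, each standing for 1 captured transcript). A cell passed a stromal gate when it held at least 10 UMIs of Col1a1, Col1a2, Col3a1 and Dcn, more of these than of 6 keratins and than of Myh11, Des and Cnn1, no UMI of Ptprc or Pecam1 and at most 2 UMIs of 4 mitotic genes. Of 11421 gated cells, a cell belonged to the Pi16/Mfap5 class when its sum of Pi16 and Mfap5 was at least 2 and larger than the sums of Has1, Scara5 and Bglap2, of Inmt, Sct and Ass1 and of Car3, Cxcl14 and Rbp4. These cells are called A cells below, and the cells in which 1 of the other sums was largest are called B, C and D cells in that order. The rule kept 3498 A cells, beside 1152 B, 400 C and 5705 D cells, and 666 gated cells fell in no class. All mice were wild-type C57BL/6, 8 weeks old, and cells came from the mucosal layer, which was peeled from the bladder muscle and digested with collagenase IV. Healthy mice received no CPP, acute mice were taken 48 h after CPP, and chronic mice received 4 rounds of CPP over 11 days. By the methods, chronic bladders too were taken 48 h after the last round, and each chronic dose was lower than the acute dose. Each condition had 2 libraries, and according to the methods each group held males and females, so that sex was not separated. The study calls the replicates biological and states several mice per condition, but the labels tie no library to its animals. The p-values measure the spread between these libraries only. The methods also state that the samples were handled and sequenced in batches, but the sources used here do not assign libraries to them, so no batch entered a fit and batch and condition cannot be told apart.

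Fibroblasts that carry Pi16 are known in many mouse tissues as a universal type that lies in the adventitia around vessels and in fascia, shares Cd34 and Ly6a (Sca-1) with mesenchymal progenitors and secretes much of the loose, elastic matrix. Pi16 is a secreted peptidase inhibitor, and Mfap5 is a glycoprotein of the fibrillin microfibrils on which elastin is laid down. In the bladder, the stroma beneath the urothelium also holds contractile, alpha smooth muscle actin positive cells close to the epithelium. CPP metabolites crosslink DNA, and cells with damaged DNA stabilise the transcription factor p53, which induces cell cycle inhibitors, death genes and its own antagonist Mdm2.

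The 6 libraries held 5348 to 15062 barcodes and 54604109 to 111985678 UMIs. A cells had median depths of 2569 to 5509 UMIs, against 6022 to 10964 in urothelial cells. Chronic replicate 2 gave 9 A cells and entered the fits on A cells only in an alternative with at least 5 cells per library. In the other fits chronic replicate 1 was the only chronic library, its spread taken as that of the other groups. Acute replicate 2 stood apart in 25 immediate-early and dissociation genes, which summed to 11591 counts per 1000000 pooled UMIs (CPM) in its A cells and to 22943 to 35604 in the A cells of the other libraries. Pairs of libraries shared 36 to 229 cell barcodes, at most 2.28% of the smaller library. Called doublets were kept in the main counts, where they made up 221 A cells (6.32%), and the counts were repeated without them. Markers of other cell types were low in A cells but not absent. In the libraries with at least 20 A cells, 10 macrophage markers summed to 35.3 to 496 CPM, 9 endothelial markers to 8.14 to 48.7, 10 mural and smooth muscle markers to 66.9 to 97.7 and 4 lymphocyte markers to 0 to 15.3, and each of these markers had at least 1 UMI in A cells of some library. In the same libraries 16 urothelial markers summed to 3530 to 10287 in A cells, where urothelial cells had 25705 to 44500, and the highest value belonged to chronic replicate 1.

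The classes differed in Pi16 and Mfap5 because they were chosen on them, so these levels are a description. Pi16 stood at 4369 and 4374 CPM in healthy replicates 1 and 2, 1579 and 2564 in acute replicates 1 and 2 and 3105 in chronic replicate 1, with 1376 in the 9 cells of chronic replicate 2. Every injured library lay below both healthy ones for Pi16. Mfap5 stood at 1592 and 1244 in healthy replicates 1 and 2, 1093 and 1246 in acute replicates 1 and 2 and 1298 in chronic replicate 1, with 734 in the 9 cells of chronic replicate 2. For Mfap5 acute replicate 1 and chronic replicate 2 lay below both healthy libraries, and the other injured libraries lay between them. A median A cell held 10 UMIs of the pair, between 6 in chronic replicate 2 and 18 in healthy replicate 1, while 37 A cells had no Pi16 and 485 (13.9%) had no Mfap5. The border of the class was soft. Of the A cells, 3361 (96.1%) held a UMI of at least 1 other sum, and 2993 (85.6%) held 1 of Has1, Scara5 or Bglap2. Conversely, Pi16 was found in 62.5% to 97.4% of the B cells of a library. Of the A cells, 111 held the minimum of 2 UMIs and 424 led the next sum by 1 UMI, while just outside, 20 gated cells had a single A UMI and none of the other sums, 387 tied with another sum and 343 B, C or D cells led the A sum by 1.

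The markers that the rule did not use set A cells apart from D cells, and their ranges in A and B cells overlapped. Clec3b encodes tetranectin, a plasminogen-binding matrix protein, and measured 2215, 1861, 2706, 2929 and 2887 CPM in A cells and 75.2, 120.0, 80.9, 102 and 302 in D cells of the 5 libraries, in the order healthy 1, healthy 2, acute 1, acute 2 and chronic 1. No A library came near a D library. Cd34, a sialomucin of progenitors and vessels, ranged over 605 to 914 CPM in A cells, 264 to 701 in B, 400.0 to 583 in C, 16.1 to 119 in D and 6.62 to 15.6 in urothelial cells. Lum, the keratan sulfate proteoglycan lumican, ranged over 899 to 1696 in A cells, 344 to 1345 in B, 759 to 1535 in C and 52.6 to 442 in D cells. Stmn2, a microtubule regulator best known from neurons, ranged over 206 to 763 in A cells, 258 to 685 in B, 82.5 to 332 in C and 2.05 to 30.1 in D cells. The A and C ranges of Lum and Stmn2 overlapped as well.

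**Figure D1:**
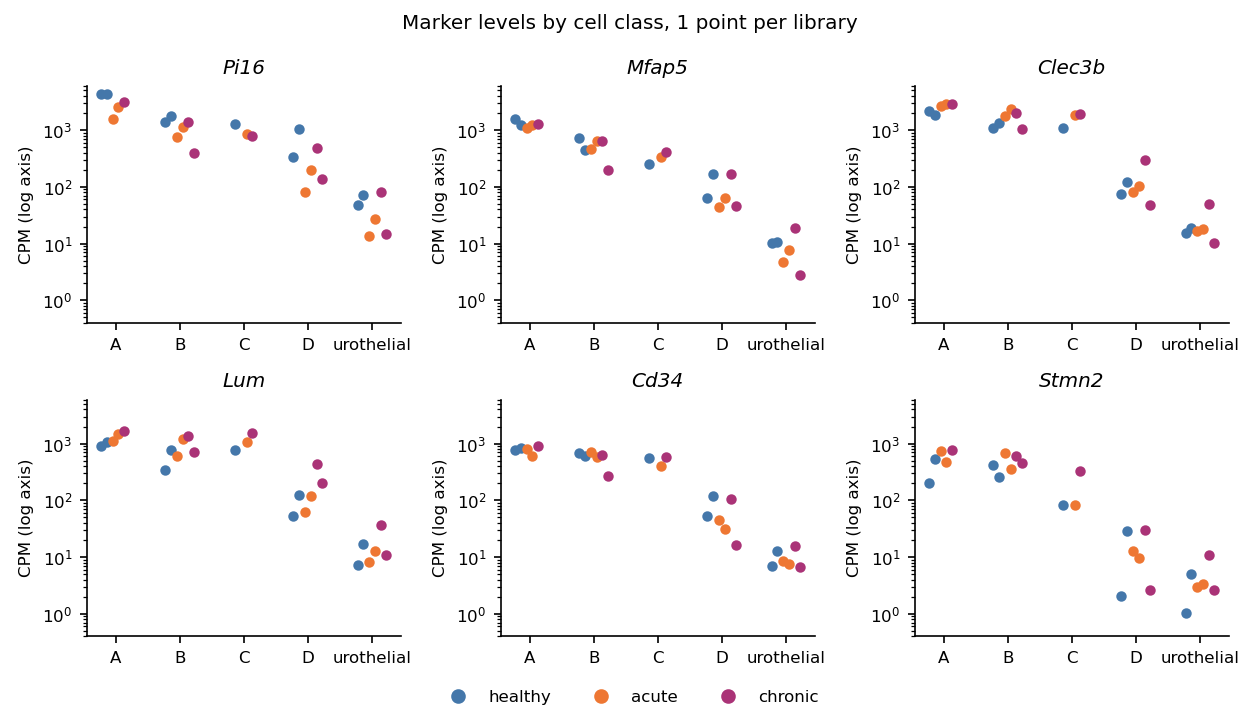
CPM on a log axis for 6 markers, 1 point per library with at least 20 cells of a class, for A, B, C, D and urothelial cells and coloured by condition. Pi16 and Mfap5 were used to choose the cells, and for Clec3b the A cells ranged over 1861 to 2929 and the D cells over 48.2 to 302.

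Detection in single cells was compared after each cell was thinned to 2000 UMIs. Clec3b, compared in the 5 libraries with at least 20 A cells, was then found in 77.8% and 78.8% of A cells of the healthy libraries, in 85.6% and 80.5% of the acute and in 91.9% of chronic replicate 1, where 87.8%, 87.5%, 94.0%, 83.4% and 94.1% had it unthinned. Urothelial cells of these libraries, which should lack it, had it in 1.54% to 5.81% after the same thinning, far below the share in A cells. B cells had it in 66.7% to 80.4%, and C cells, where at least 20 were present, in 54.5% to 83.3%. Both ranges overlapped that of A cells, while D cells had it in 6.13% to 31.4%. Within each library compared, the Clec3b share was higher in A cells than in B or C cells. The closest pair was 80.5% of A cells against 79.8% of B cells in acute replicate 2. Stmn2 was found in 14.8% and 33.2% of healthy, 42.5% and 28.4% of acute and 52.4% of chronic A cells, where 21.3%, 43.6%, 59.9%, 36.6% and 58.5% had it unthinned. Urothelial cells had Stmn2 in 0.0690% to 1.45% after thinning and D cells in 0.180% to 3.49%. B cells had it in 10.3% to 44.4%, and C cells, where at least 20 were present, in 6.49% to 22.7%. Both of these ranges overlapped that of A cells. Within each library compared, the Stmn2 share was again higher in A cells than in B or C cells. The closest pair was 42.5% of A cells against 41.3% of B cells in acute replicate 1. Thinning left out 113 of 585 A cells of acute replicate 2, 4 of 622 of chronic replicate 1 and none of the others.

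The share of A cells among stromal cells was compared over conditions. A cells made up 41.0% (95% Wilson interval 38.9% to 43.1%) and 64.1% (62.0% to 66.2%) of gated cells in the healthy libraries, 30.3% (26.6% to 34.3%) and 11.1% (10.3% to 12.0%) in the acute and 43.7% (41.2% to 46.3%) and 5.96% (3.17% to 10.9%) in the chronic libraries. These intervals cover counting error only. Both acute libraries lay below both healthy ones, while the chronic libraries lay on either side of healthy replicate 1. The acute mean was 20.7% ± 13.6 (SD, n = 2) against 52.6% ± 16.4 (SD, n = 2) in healthy bladders, and a two-sided exact permutation test gave p = 0.333, the smallest that 2 against 2 libraries allow. The chronic mean was 24.9% ± 26.7 (SD, n = 2), with p = 0.667 by the same exact test. D cells made up 6.19% to 73.1% of gated cells. Of all cells with over 500 genes, A cells made up 10.1% (9.49% to 10.8%) and 13.1% (12.5% to 13.8%) in the healthy libraries, 2.42% (2.08% to 2.81%) and 4.22% (3.90% to 4.57%) in the acute and 5.53% (5.12% to 5.97%) and 0.168% (0.0886% to 0.320%) in the chronic libraries. With this denominator, given as a description, every injured library lay below both healthy ones. Among A and B cells alone, a denominator chosen after the data were seen, healthy and injured libraries did not overlap. A cells made up 95.6% (94.0% to 96.8%) and 90.3% (88.7% to 91.8%) in the healthy libraries, 53.9% (48.3% to 59.3%) and 65.3% (62.1% to 68.3%) in the acute and 55.5% (52.6% to 58.4%) and 27.3% (15.1% to 44.2%) in the chronic libraries. The exact permutation test again gave its smallest value of p = 0.333 for each injury. Pi16 helped to place each cell, and Pi16 itself was lower in all injured libraries. A change in number and a change in these genes cannot be told apart here. Genes of the rule were also found in urothelial cells, to a degree that differed by library. After thinning to 2000 UMIs, urothelial cells of acute replicate 2 had Cxcl14 in 21.2% and Car3 in 13.1%. The other libraries had 1.08% to 3.68% and 0.448% to 1.85%, and Pi16 ranged over 1.39% to 10.1% of urothelial cells. The part of such background in the shares was not tested.

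**Figure D2:**
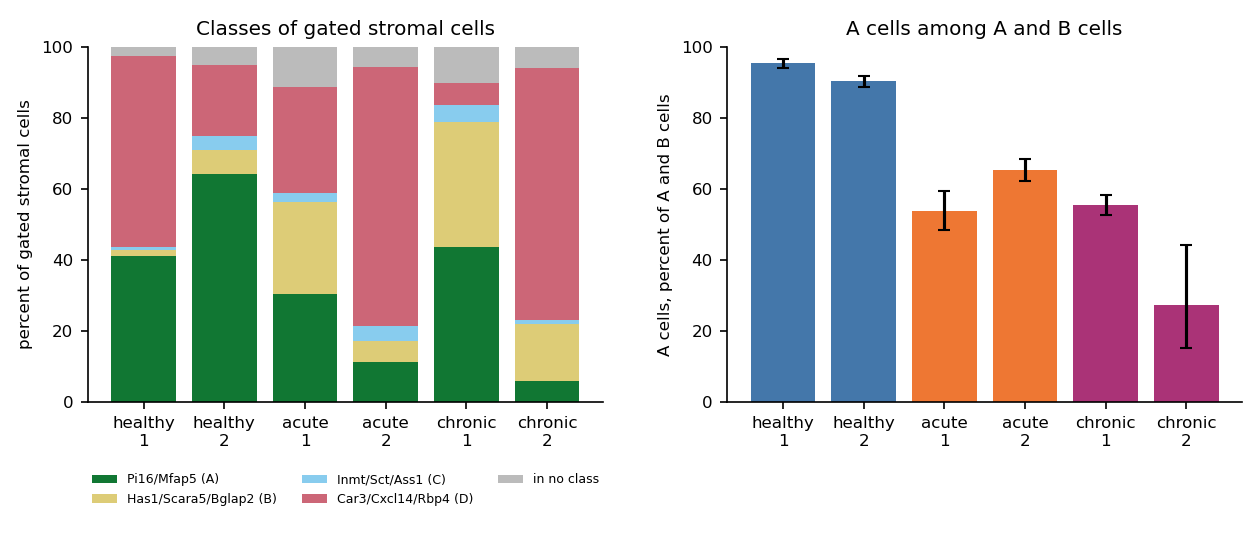
Left, percent of gated stromal cells in each class for the 6 libraries. Right, A cells as a percent of A and B cells with 95% Wilson intervals, where both healthy libraries stand above 90% and the injured ones between 27.3% and 65.3%.

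The comparison with D cells asked how the Pi16/Mfap5 fibroblasts differ from the Car3/Cxcl14/Rbp4 stroma, whose Acta2 marks the contractile cells of the bladder mucosa. The cells were divided by the rule genes, so genes that follow those in single cells differ by the choice of cells, and a p-value speaks only of how repeatable a difference was over libraries. Of 9343 genes tested outside the rule genes, edgeR called 962 higher in A cells (10.3%) and 1187 lower (12.7%) at an adjusted p under 0.05. The median over all genes was a log2 fold change of -0.03. Values that stand alone before an adjusted p are log2 fold changes of A cells over the other class. With mitochondrial and ribosomal genes kept in the table the split turned to 1152 higher and 1007 lower.

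Genes of the universal fibroblast list went with A cells. Of 23 members tested, 18 were called higher and 2 lower, with a median of 1.51. Clec3b was higher in A cells (log2 fold change 4.46, SE 0.17, adjusted p = 1.99e-18) and in 5 of 5 libraries. Pcolce2, an enhancer of procollagen processing, measured 112, 174, 249, 80.3 and 206 CPM in A cells and 1.64, 0.945, 7.22, 2.06 and 0 in D cells (log2 fold change 5.48, SE 0.23, adjusted p = 3.60e-17). It was nearly undetected in D cells. Tppp3, a tubulin-binding protein found in tendon and adventitial cells, stood at 352 ± 37.9 against 21.6 ± 11.7 CPM (SD, n = 5; log2 fold change 4.37, SE 0.16, adjusted p = 1.11e-18). Cd34 differed by 3.69 (adjusted p = 1.78e-16), Dpt (dermatopontin, a collagen-binding matrix protein) by 2.54 (adjusted p = 5.62e-11) and Igfbp6, which binds IGF2, by 1.32 (adjusted p = 7.90e-10), each higher in 5 of 5 libraries. Ly6a differed by only 0.49 (adjusted p = 3.76e-04). Thy1, the surface glycoprotein used to sort fibroblasts, was lower in A cells (log2 fold change -1.82, SE 0.33, adjusted p = 6.45e-05) and lower in 4 of 5 libraries.

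The matrix lists were mixed. Among 20 elastic fibre and microfibril genes, 10 were called higher in A cells and 6 lower. Eln (elastin) measured 164, 148, 97.9, 40.1 and 104 CPM in A cells and 11.5, 59.5, 7.22, 11.0 and 20.1 in D cells (log2 fold change 2.46, SE 0.29, adjusted p = 5.48e-08), with A above D in every library. Fbn1 (fibrillin-1, the backbone of microfibrils) differed by 1.51 (adjusted p = 1.16e-12), Fbln1 (fibulin-1) by 1.58 (adjusted p = 4.76e-12) and Loxl1, a lysyl oxidase that crosslinks elastin, by 1.40 (adjusted p = 2.19e-09). Its relative Lox went the other way (log2 fold change -2.78, SE 0.18, adjusted p = 3.46e-13), as did Mfap2 (log2 fold change -0.55, SE 0.12, adjusted p = 5.83e-04). Of 23 interstitial collagen genes and their processing factors, 6 were called higher and 11 lower. Col14a1 and Col15a1, collagens that associate with fibrils and basement membranes, were higher in A cells by 1.91 (adjusted p = 2.74e-13) and 1.70 (adjusted p = 5.73e-08), whereas Sparc, a collagen-binding glycoprotein, was lower (log2 fold change -0.78, SE 0.10, adjusted p = 2.22e-07). Col4a1, the basement membrane collagen, was lower as well (log2 fold change -1.86, SE 0.13, adjusted p = 8.24e-13), within a list of 15 basement membrane genes with 3 called higher and 5 lower. The serine protease Htra3 and the inhibitors Serpine2 and Timp3 were higher in A cells by 2.23, 2.93 and 1.99 (adjusted p = 6.82e-17, 3.23e-13 and 4.99e-11).

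Contractile and activated myofibroblast genes were mostly lower in A cells. Of 20 tested, 15 were called lower and 1 higher, with a median of -1.47. Acta2 (alpha smooth muscle actin) measured 69.3, 54.7, 104, 85.3 and 63.2 CPM in A cells and 779.8, 1627, 658, 1354 and 1412 in D cells (log2 fold change -3.99, SE 0.18, adjusted p = 1.46e-16). Tnc (tenascin C), a matrix glycoprotein of remodelling tissue, measured 5.93, 0.326, 1.60, 18.6 and 0 CPM in A cells and 426, 192, 446, 568 and 166 in D cells (log2 fold change -6.18, SE 0.29, adjusted p = 1.85e-16). For neither gene did the classes overlap. Myl9, the regulatory myosin light chain, differed by -4.06 (adjusted p = 1.18e-20). The exception was Postn (periostin), higher in A cells (log2 fold change 2.34, SE 0.27, adjusted p = 4.67e-08). Other large differences in favour of D cells were Moxd1 (-5.13), a monooxygenase homologue, Srpx2 (-4.77), Wisp1 (-4.36), a CCN matricellular protein, Itga11 (-4.30), a collagen receptor, and Col11a1 (-4.24), with adjusted p-values of 9.99e-16, 6.83e-16, 1.20e-15, 9.61e-16 and 7.48e-15.

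Secreted and immune genes divided along the same line. Of 11 complement genes, 8 were called higher in A cells and 1 lower, with a median of 0.79. C3, the central complement component, measured 72.4, 43.0, 73.8, 31.5 and 58.8 CPM in A cells and 3.08, 0.945, 1.44, 1.44 and 10.1 in D cells (log2 fold change 4.49, SE 0.25, adjusted p = 9.19e-15). Cd55, which protects cells from complement, differed by 2.74 (adjusted p = 6.32e-16) and C4b by 1.54 (adjusted p = 5.37e-09). Of 17 chemokine and cytokine genes, 9 were called higher and 4 lower, among them Csf1, the macrophage growth factor (1.54, adjusted p = 3.86e-09), the alarmin Il33 (1.52, adjusted p = 1.08e-06) and Cxcl12 (0.73, adjusted p = 1.75e-04). Growth factors and their antagonists leaned to D cells, with 9 of 32 higher in A cells, 17 lower and a median of -0.55. The guidance cue Slit3 was higher in A cells (log2 fold change 3.84, SE 0.25, adjusted p = 1.68e-13), and so were Slit2 (2.79, adjusted p = 2.88e-12) and the Wnt antagonist Sfrp1 (2.90, adjusted p = 1.12e-11). Adam33, a membrane metalloprotease, and Tmem100, a small transmembrane protein, differed by 4.40 (adjusted p = 2.61e-16) and 4.73 (adjusted p = 7.99e-16).

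**Figure D3:**
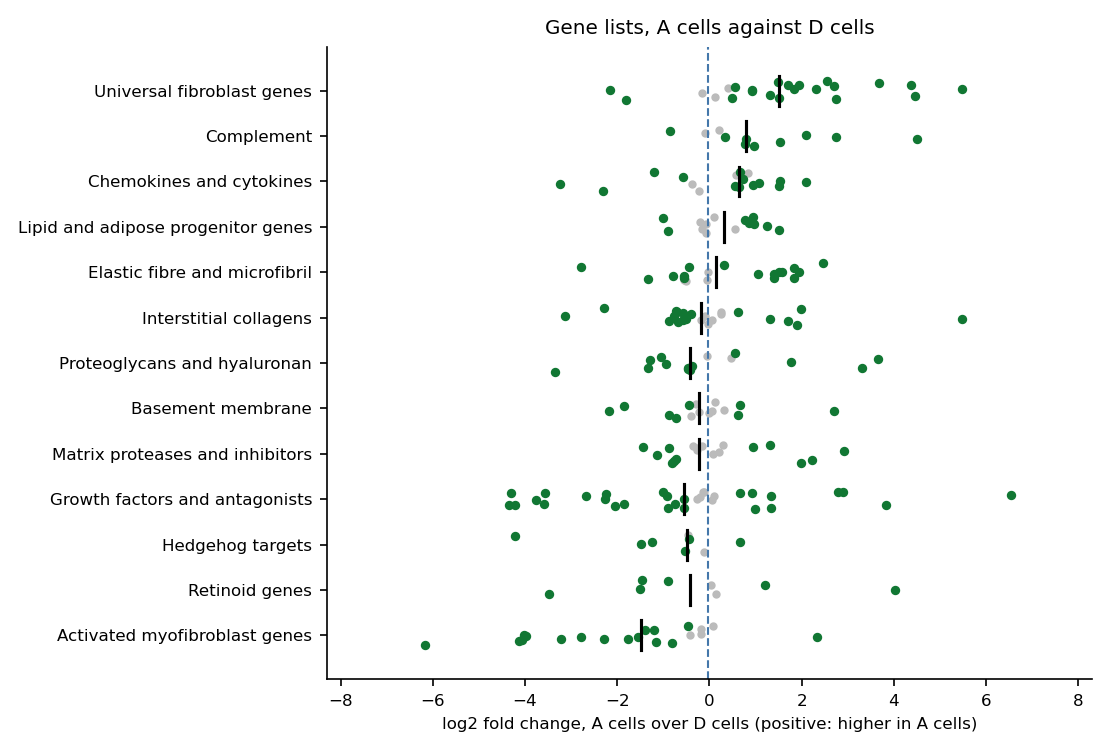
Log2 fold change of A cells over D cells for the tested genes of 13 gene lists, 1 point per gene, green where the adjusted p was under 0.05, with the median of each list as a black bar and the median of all genes (-0.03) as a dashed line. The universal fibroblast list has its median at 1.51 and the activated myofibroblast list at -1.47.

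Among the growth factors that stroma supplies to the urothelium, several were lower in A cells. Mdk (midkine) measured 86.4, 72.6, 57.8, 123 and 72.0 CPM in A cells and 335, 334, 332, 594 and 347 in D cells (log2 fold change -2.25, SE 0.10, adjusted p = 1.09e-16). Bmp5 measured 32.8, 16.6, 6.42, 28.7 and 5.88 CPM in A cells and 318, 213, 377, 293 and 156 in D cells (log2 fold change -3.77, SE 0.18, adjusted p = 2.24e-16). Both lay lower in A cells of every library. Bdnf, a neurotrophin, and Ptn (pleiotrophin) were lower in A cells of every library (-4.31 and -4.35, adjusted p = 1.96e-12 and 3.13e-14), and the Wnt antagonist Dkk2 differed by -4.22 (adjusted p = 1.50e-14). Igf1 and Fgf7 differed less (-0.93 and -0.55, adjusted p = 0.0016 and 0.0288), each with 1 library against the direction. Bmp4, which A cells carried at 262 to 541 CPM and D cells at 328 to 653, missed the threshold (log2 fold change -0.20, SE 0.14, adjusted p = 0.342).

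Stromal transcription factors split evenly, with 11 of 26 called higher in A cells and 11 lower. Osr1, a regulator of lateral plate mesenchyme, measured 256, 428, 210.2, 363 and 467 CPM in A cells and 42.7, 125, 62.1, 60.4 and 141 in D cells (log2 fold change 2.15, SE 0.14, adjusted p = 2.51e-13). Tcf21 and Klf4 were higher in A cells (0.81 and 0.68, adjusted p = 1.90e-06 and 9.91e-06) and Foxf1, a target of hedgehog signals in gut and bladder mesenchyme, was lower (-0.97, adjusted p = 1.70e-08). Klf4 is also an immediate-early gene, and 25 such genes gave 3 higher and 7 lower in A cells with a median of -0.13. Over all genes, 10.3% were called higher and 12.7% lower.

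A and B cells were much closer to each other. Of the 9343 genes, 39 were called higher in A cells (0.417%) and 21 lower (0.225%), and leaving out healthy replicate 1 or chronic replicate 1 brought the total from 60 to 36 and to 22. Mfap4, a microfibril-associated protein, measured 147, 121, 19.3, 87.4 and 53.6 CPM in A cells and 15.3, 9.31, 14.4, 25.8 and 12.1 in B cells (log2 fold change 2.34, SE 0.34, adjusted p = 2.53e-04). Pcolce2 measured 112, 174, 249, 80.3 and 206 CPM in A cells and 22.9, 59.0, 121, 31.5 and 104 in B cells (log2 fold change 1.29, SE 0.18, adjusted p = 1.92e-04). A cells were above B cells in each library for both. Also higher were Dpt (1.21, adjusted p = 0.00948), C3 (1.38, adjusted p = 0.00262), Loxl1 (0.92, adjusted p = 7.07e-04) and Sparc (0.66, adjusted p = 2.60e-04). Enzymes among the higher genes were the flavin monooxygenase Fmo2 (1.45, adjusted p = 3.75e-05), the membrane dipeptidase Dpep1 (1.46, adjusted p = 2.42e-04) and the lipid phosphatase Plpp1 (1.10, adjusted p = 3.75e-05). Tagln, an actin-binding protein of smooth muscle, was higher in A than in B cells (log2 fold change 1.07, SE 0.22, adjusted p = 0.0116). The calls of Dpt and Tagln were each lost in 3 alternatives, the removal of chronic replicate 1 among them, and that of C3 in 1. Over lists, 3 of 23 universal fibroblast genes, 2 of 20 elastic fibre genes, 3 of 23 interstitial collagen genes and 3 of 15 proteoglycan genes were called higher and none of these lower.

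On the lower side stood Bglap3 (log2 fold change -2.53) and Bglap, osteocalcin copies nearly identical to Bglap2, on which B cells were chosen, so their counts are uncertain and follow the choice. Socs3, a brake on cytokine signals, measured 344, 627, 629, 149 and 1051 CPM in A cells and 695, 1169.8, 971, 230.3 and 1531 in B cells (log2 fold change -0.67, SE 0.12, adjusted p = 0.00369). Tnfaip3, an inhibitor of NF-kB, differed by -0.88 (adjusted p = 0.0313), Mdm2 by -0.68 (adjusted p = 0.0029), Wnt4 by -0.88 (adjusted p = 0.0039), the phosphodiesterase Pde12 by -1.25 (adjusted p = 0.00159) and the inositol kinase Itpkc by -0.92 (adjusted p = 0.0218). Each of these was lower in 5 of 5 libraries. The calls of Tnfaip3 and Itpkc were each lost in 5 alternatives, DESeq2 and the removal of healthy replicate 1 or acute replicate 1 among them, and those of Mdm2 and Wnt4 in 1 each. The summed level of 25 immediate-early genes was higher in B than in A cells in each of those libraries, with 14915 to 37992 CPM in B cells and 11591 to 35604 in A cells, and its part in these differences was not tested. Of the markers, Clec3b and Lum were higher in A cells (0.59 and 0.73, adjusted p = 0.0433 and 0.0412), whereas Cd34 and Stmn2 missed the threshold (0.32 and 0.26, adjusted p = 0.438 and 0.73).

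Only healthy replicate 2, acute replicate 2 and chronic replicate 1 held at least 20 C cells. In the comparison with them 22 of 9343 genes were called higher in A cells (0.235%) and 6 lower (0.0642%). Without healthy replicate 2, acute replicate 2 or chronic replicate 1 the total of 28 went to 13, 7 and 8, so each of the 3 libraries carried it. With RLE factors the split was 13 higher and 6 lower, and with DESeq2 it was 23 and 13. Stmn2 measured 526, 469 and 763 CPM in A cells and 83.7, 82.5 and 332 in C cells in that order of libraries (log2 fold change 1.99, SE 0.32, adjusted p = 0.0014). Tppp3 measured 335, 298 and 355 CPM in A cells and 83.7, 107 and 103 in C cells (log2 fold change 1.75, SE 0.20, adjusted p = 2.16e-05). A cells lay above C cells in all 3 libraries for both genes. Fbn1 (1.12, adjusted p = 4.20e-04), Loxl1 (1.39, adjusted p = 0.00123), Htra3 (0.94, adjusted p = 2.64e-04) and Tmem100 (2.64, adjusted p = 0.0117) were higher in A cells, and Mdk (-1.08, adjusted p = 3.32e-04) and Cck, the peptide hormone cholecystokinin (-1.61, adjusted p = 0.0229), were lower. The call of Cck was lost in 4 alternatives and that of Tmem100 in 3, both of them whichever of the 3 libraries was removed, and those of Stmn2, Loxl1 and Mdk in 1 each. Calls close to the threshold were those of Pcolce2, the protease Prss23, the matrix protein Fndc1 and 1700112E06Rik on the higher side (adjusted p = 0.0452, 0.0476, 0.0454 and 0.0452) and of Wnt4, the receptor ligand Gas6 and the metallothionein Mt2 on the lower side (adjusted p = 0.0454, 0.0422 and 0.0454), and each of these was lost in 5 to 9 alternatives.

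Within the A cells, those with Mfap5 were compared with those without, a split made after the data showed too few cells without Pi16 for the split first planned. In all, 4 libraries had at least 20 cells on each side, with 766 and 79 cells in healthy replicate 1, 1042 and 228 in healthy replicate 2, 495 and 90 in acute replicate 2 and 551 and 71 in chronic replicate 1. Cells with Mfap5 were the deeper ones in each of these, by median UMIs of 4758 against 4515, 3356 against 3112, 3293 against 2406 and 2594 against 2414. Of 9269 genes, 43 were called higher in cells with Mfap5 (0.464%) and 28 lower (0.302%). Among the higher were Tmem100 (2.59, adjusted p = 7.35e-05), Dpt (2.32, adjusted p = 0.00361), Mfap4 (1.44, adjusted p = 0.00677), the actin-binding protein Dbn1 (1.38, adjusted p = 0.00972), C3 (1.36, adjusted p = 0.028), Pcolce2 (1.26, adjusted p = 0.012), Adam33 (1.26, adjusted p = 0.00677) and Eln (1.26, adjusted p = 0.00972). Of the lists, 5 of 23 universal fibroblast genes and 5 of 21 elastic fibre genes were called higher and none lower. The lower side held the morphogens Bmp7 (-1.25, adjusted p = 0.0307) and Bmp2 (-1.16, adjusted p = 0.02) beside Lmo7 (-1.34), Epha2 (-1.25), Slc6a6 (-1.21), Spon1 (-1.21), Trf (-1.17) and Sh3bgrl2 (-1.09), with adjusted p-values of 0.00677 to 0.0439 for these 6. All 15 urothelial markers tested had values below 0, with a median of -0.52 against 0.01 over all genes, although none was called, and their part in the lower side was not tested. Cells without Mfap5 passed the rule on Pi16 alone, so this split lies within the range that the rule set. The p-values of this split speak only of how repeatable a difference was over libraries, and the part of depth was not tested. Neither the calls nor the list counts are read as support for the class.

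Few genes of the A cells passed the test over conditions. Against healthy libraries, edgeR called 2 of 10358 genes higher after acute CPP (0.0193%) and 2 higher in the chronic library (0.0193%), none lower, while 475 and 499 genes had an unadjusted p under 0.05 and DESeq2 called 17 and 12. The 2 genes were Ltc4s and Gm26870 in both comparisons, which share the healthy libraries. Ltc4s, at 11:50236461-50238616 on the minus strand of GRCm38 (mm10), encodes leukotriene C4 synthase, the enzyme that makes cysteinyl leukotrienes. It stood at 2.50 and 2.93 CPM in healthy replicates 1 and 2, 88.3 and 45.9 in acute replicates 1 and 2 and 76.4 in chronic replicate 1, with 214 in the 9 cells of chronic replicate 2. Every injured library lay above both healthy ones. The acute log2 fold change was 4.58 (SE 0.43, adjusted p = 0.0232) and the chronic one 4.79 (SE 0.46, adjusted p = 0.0277), and in counts 119 acute and 104 chronic UMIs faced 17 healthy ones, rates 21.8-fold (counting interval 13.0 to 38.6) and 28.2-fold (16.8 to 50.3) higher. Myeloid cells are a known source of Ltc4s, and 10 macrophage markers summed to 177 and 496 CPM in healthy, 35.3 and 309.5 in acute and 142 in chronic replicate 1 A cells but to 2202 in the 9 cells of chronic replicate 2. Among the first 5 of these libraries healthy replicate 2 had the highest sum, and the part of myeloid cells in the Ltc4s values of any library was not tested. Gm26870, a lincRNA of the annotation at 9:3000282-3038313 on the minus strand, stood at 0.624 and 0.326 CPM in healthy replicates 1 and 2, 28.9 and 25.8 in acute replicates 1 and 2 and 141 in chronic replicate 1, with 91.8 in the 9 cells of chronic replicate 2. The healthy values rested on 3 UMIs, and its rates were 55.9-fold (18.2 to 280) and 295-fold (99.4 to 1443) higher in acute and chronic cells by counting alone. The separate edgeR fit over libraries gave an adjusted p = 0.0157 for acute cells. Higher Ltc4s values in injured libraries were not limited to A cells, and B and D values of Gm26870 are not given here. In B cells Ltc4s measured 0 and 6.21 in healthy replicates 1 and 2, 98.7 and 104 in acute replicates 1 and 2 and 70.5 in chronic replicate 1 and in D cells 3.90 and 1.89 in healthy replicates 1 and 2, 40.4 and 15.3 in acute replicates 1 and 2 and 90.5 in chronic replicate 1. Urothelial cells had 1.16 to 6.03 CPM of Ltc4s and 0.578 to 4.99 of Gm26870, below every injured A library.

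**Figure D4:**
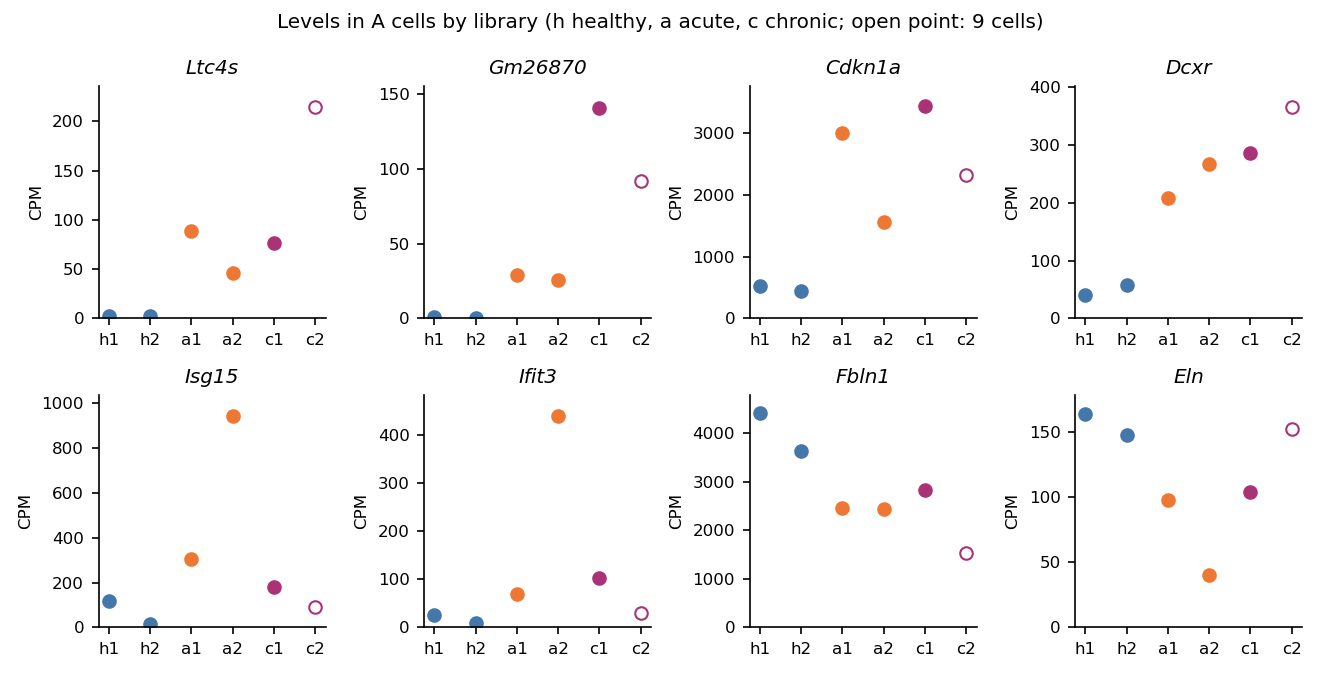
CPM in A cells of each library (h healthy, a acute, c chronic, numbered by replicate) for 8 genes, with an open point for the 9 cells of chronic replicate 2. Ltc4s, Gm26870, Cdkn1a and Dcxr stand higher in all injured libraries than in both healthy ones, Isg15 and Ifit3 are highest in acute replicate 2, and Fbln1 stands lower in all injured libraries.

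Targets of p53 were higher in the injured A cells as a group, although none passed the test across all genes. Of 26 targets, 17 had all 3 injured libraries above both healthy ones and none had them below, where 8.41% of all 10358 genes were above and 10.8% below. The median log2 fold change of the list was 1.29 in acute and 1.02 in chronic cells, against -0.01 and -0.02 over all genes. Summed over the list, A cells held 2435 and 2413 CPM in healthy, 7033 and 4784 in acute and 7438 in chronic libraries. With chronic replicate 2 added, 13 remained above, where 3.75% of all genes did. The list was chosen with earlier results of these data known.

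Cdkn1a encodes p21, the inhibitor of cyclin-dependent kinases that holds damaged cells in G1. It stood at 519.5 and 442 CPM in healthy replicates 1 and 2, 2991 and 1561 in acute replicates 1 and 2 and 3429 in chronic replicate 1, with 2325 in the 9 cells of chronic replicate 2. Every injured library lay above both healthy ones, yet the test missed its threshold for acute (log2 fold change 2.26, SE 0.35, adjusted p = 0.182, 6.55e-06 to 0.299 over its 16 alternatives) and chronic cells (log2 fold change 2.84, SE 0.39, adjusted p = 0.135, 2.48e-06 to 0.257 over its 15 alternatives). Dcxr, a carbonyl reductase, stood at 40.3 and 58.0 in healthy replicates 1 and 2, 209 and 267 in acute replicates 1 and 2 and 287 in chronic replicate 1 (log2 fold change 2.31, SE 0.32, adjusted p = 0.182, 8.49e-06 to 0.299 over its 16 alternatives). Phlda3, a p53-induced repressor of Akt, stood at 259.6 and 289.9 in healthy replicates 1 and 2, 701 and 799 in acute replicates 1 and 2 and 838 in chronic replicate 1, Bax, the pore-forming death protein, at 271 and 254 in healthy replicates 1 and 2, 753 and 699 in acute replicates 1 and 2 and 514 in chronic replicate 1 and Ccng1 (cyclin G1) at 63.0 and 93.5 in healthy replicates 1 and 2, 246 and 171 in acute replicates 1 and 2 and 242 in chronic replicate 1. None of these 3 overlapped between healthy and injured libraries. Mdm2, the ubiquitin ligase that degrades p53, stood at 59.3 and 39.4 in healthy replicates 1 and 2, 306 and 59.5 in acute replicates 1 and 2 and 162 in chronic replicate 1, so that acute replicate 2 only just exceeded healthy replicate 1. Btg2, also an immediate-early gene, overlapped between conditions at 625 and 619 in healthy replicates 1 and 2, 905 and 405 in acute replicates 1 and 2 and 949 in chronic replicate 1.

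The promoter of Cdkn1a is shown because Cdkn1a was the only 1 of 19 matched genes of the p53 list with the pattern searched, 1 form of the p53 element core. A pair of CATG half-sites with any 6 bases between them, a pattern that matches both strands at once, was searched in RefSeq promoters (GRCm38.p6). Each promoter spanned the 250 bases before and 50 after a start. Other letters or spacings of the element and sites outside these windows were not searched, so the other genes are not shown to lack one. Of 32851 promoters 0.712% hold the pair, and of 27025 genes 0.833% have such a promoter. The match is printed in capitals in the window chr17:29090729-29091028, plus strand, 5′ to 3′ on the gene strand.
Cdkn1a: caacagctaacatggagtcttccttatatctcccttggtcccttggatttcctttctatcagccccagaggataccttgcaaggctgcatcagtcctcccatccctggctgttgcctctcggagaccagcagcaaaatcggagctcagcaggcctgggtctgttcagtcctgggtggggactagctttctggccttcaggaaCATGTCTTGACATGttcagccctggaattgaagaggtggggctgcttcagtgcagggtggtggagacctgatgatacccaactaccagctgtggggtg
It begins 48 bases before the annotated start. A match describes the letters and does not show that the factor binds.

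Higher levels of p53 targets were seen in the neighbouring cells as well. In B cells 14 of the 26 genes, in D cells 14 and in urothelial cells 15 had the same 3 injured libraries above both healthy ones, where 13.3%, 7.22% and 9.33% of all genes did. Their summed level was 3603 and 3931 CPM in the healthy libraries and between 6200 and 9442 in the injured ones in B cells. It was 2594 and 2974 against 3541 to 7377 CPM in D cells and 3283 and 3477 against 3795 to 5244 CPM in urothelial cells. A test of whether acute CPP changed A cells differently from B, C and D cells called 0 of 10280 genes (0.0%), with 374 at an unadjusted p under 0.05 and 0 by DESeq2, and the same test for chronic CPP called 0 (0.0%), with 348 and 0. Without healthy replicate 1 these calls were 1 and 5, and without healthy replicate 2 they were 3 and 1. No response to CPP was therefore shown to be particular to the A cells.

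Interferon response genes were also higher in injured A cells as a group. Of 30 genes, 17 had all 3 injured libraries above both healthy ones and none below, where 8.41% of all genes were above and 10.8% below, with medians of 1.43 in acute and 1.03 in chronic cells, and none passed the test. Isg15, a ubiquitin-like modifier, stood at 117 and 16.0 CPM in healthy replicates 1 and 2, 306 and 941 in acute replicates 1 and 2 and 179 in chronic replicate 1, with 91.8 in the 9 cells of chronic replicate 2 (log2 fold change 3.29, SE 0.87, adjusted p = 0.833, 3.05e-14 to 1 over its 16 alternatives). Acute replicate 2 was far above the rest. Ifit3, which binds foreign RNA complexes, stood at 25.9 and 8.79 in healthy replicates 1 and 2, 69.0 and 439 in acute replicates 1 and 2 and 104 in chronic replicate 1, and Bst2 (tetherin) at 254 and 152 in healthy replicates 1 and 2, 300.1 and 683 in acute replicates 1 and 2 and 299 in chronic replicate 1. Zbp1, a sensor of left-handed nucleic acids, was even over the injured libraries at 42.1 and 20.5 in healthy replicates 1 and 2, 138 and 145 in acute replicates 1 and 2 and 96.2 in chronic replicate 1 (log2 fold change 2.21, SE 0.36, adjusted p = 0.241, 1.94e-04 to 0.347 over its 16 alternatives). The abundant membrane protein Ifitm3 stood at 3600.3 and 2999.6 in healthy replicates 1 and 2, 4246 and 6670.2 in acute replicates 1 and 2 and 3980.3 in chronic replicate 1. The class I genes B2m and H2-D1 overlapped between conditions, at 1419 to 1844 in healthy and 1187 to 1958 in injured libraries for B2m and at 480.1 to 787 and 568 to 889 for H2-D1. With chronic replicate 2 added the count was 8 of 30, where 3.75% of all genes were above. The summed list measured 8165 and 5956 CPM in healthy replicates 1 and 2, 8287 and 14508 in acute replicates 1 and 2 and 9265 in chronic replicate 1, with 7310 in the 9 cells of chronic replicate 2. Acute replicate 1 thus barely exceeded healthy replicate 1, and chronic replicate 2 lay between the healthy libraries. Leaving out a library can only raise such a count, and without healthy replicate 1 or acute replicate 1 it was 25 and 26 of 30, where 18.2% and 16.1% of all genes were above. In B cells 25, in D cells 18 and in urothelial cells 18 of the 30 did the same, where 13.3%, 7.22% and 9.33% of all genes did, although the urothelial sum overlapped at 1242 to 2717 in healthy and 1681 to 2165 in injured libraries.

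Promoters of 3 interferon genes are printed because their genes had higher values together and the windows hold the core of the interferon-stimulated response element, the site of interferon-activated factors. A pair of GAAA half-sites with any 2 bases between them was searched on both strands and found in 3.44% of the 32851 promoters. Counted per gene, it was found in 3.99% of 27025 genes, in 12 of 24 matched genes of the list (50%) and in 9 of 14 matched genes among the 17. Capitals mark the matches, which overlap each other in Isg15 and Bst2 and lie on the opposite strand in Ifit3, and the windows are chr4:156200769-156201068, minus strand, chr19:34583279-34583578, plus strand and chr8:71537423-71537722, minus strand, in GRCm38.p6 and on the gene strand.
Isg15: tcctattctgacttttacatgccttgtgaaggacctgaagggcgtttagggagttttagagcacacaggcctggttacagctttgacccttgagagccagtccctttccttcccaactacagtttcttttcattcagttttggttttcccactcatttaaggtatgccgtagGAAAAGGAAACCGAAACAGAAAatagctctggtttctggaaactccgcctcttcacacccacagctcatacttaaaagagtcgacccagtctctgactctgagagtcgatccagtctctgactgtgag
Ifit3: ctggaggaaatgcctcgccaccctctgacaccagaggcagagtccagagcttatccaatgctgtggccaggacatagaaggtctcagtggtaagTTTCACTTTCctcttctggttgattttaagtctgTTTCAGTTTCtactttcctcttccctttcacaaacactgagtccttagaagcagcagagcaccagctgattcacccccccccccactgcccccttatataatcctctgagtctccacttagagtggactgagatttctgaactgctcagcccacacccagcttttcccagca
Bst2: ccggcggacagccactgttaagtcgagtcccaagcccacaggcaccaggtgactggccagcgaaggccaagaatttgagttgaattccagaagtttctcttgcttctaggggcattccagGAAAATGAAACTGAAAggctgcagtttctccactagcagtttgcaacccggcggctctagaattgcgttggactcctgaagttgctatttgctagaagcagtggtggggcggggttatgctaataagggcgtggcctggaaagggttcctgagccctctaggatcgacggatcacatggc
The first match begins 78, 156 and 130 bases before the start.

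Elastic fibre genes leaned the other way. Of 20 genes, 9 had all 3 injured libraries below both healthy ones and 2 above, where 10.8% of all genes were below and 8.41% above. The median log2 fold change was -0.34 in acute and -0.17 in chronic cells and none passed the test. Fbln1 stood at 4414 and 3634 CPM in healthy replicates 1 and 2, 2460.0 and 2428 in acute replicates 1 and 2 and 2821 in chronic replicate 1 (log2 fold change -0.69, SE 0.26, adjusted p = 0.996, 0.597 to 1 over its 16 alternatives). Eln stood at 164 and 148 in healthy replicates 1 and 2, 97.9 and 40.1 in acute replicates 1 and 2 and 104 in chronic replicate 1, with 153 in the 9 cells of chronic replicate 2 (log2 fold change -1.20, SE 0.39, adjusted p = 0.996, 0.0229 to 1 over its 16 alternatives), and Ltbp4, a binding protein of latent TGF-beta, at 612 and 606 in healthy replicates 1 and 2, 260.0 and 369.7 in acute replicates 1 and 2 and 278 in chronic replicate 1. The injured libraries lay below both healthy ones for these genes, with the exception of the 9 cells of chronic replicate 2 for Eln (153). Fbn1 stood at 431 and 431 in healthy replicates 1 and 2, 396 and 206 in acute replicates 1 and 2 and 314 in chronic replicate 1, with 734 in the 9 cells of chronic replicate 2, Loxl1 at 427 and 450.2 in healthy replicates 1 and 2, 335 and 209.9 in acute replicates 1 and 2 and 377 in chronic replicate 1 and Mfap4 at 147 and 121 in healthy replicates 1 and 2, 19.3 and 87.4 in acute replicates 1 and 2 and 53.6 in chronic replicate 1. Efemp1 (fibulin-3) went against the list at 398 and 497 in healthy replicates 1 and 2, 586 and 771 in acute replicates 1 and 2 and 859 in chronic replicate 1. The 9 cells of chronic replicate 2 did not lie above both healthy libraries for Efemp1. With chronic replicate 2 added 7 of the 20 were below, where 6.74% of all genes were. In B cells 3 of the 20, in D cells 2 and in urothelial cells 1 were below, where 14.5%, 10.3% and 9.57% of all genes were, and the tests of a different response above called none of them. The summed list was nonetheless below both healthy libraries in all 3 injured libraries in B cells (5725 and 5725 CPM in healthy, 4099, 4796 and 5154 in injured libraries) and in D cells (3798 and 4715 against 2788, 3027 and 3779), as in A cells (7966 and 7144 against 5339, 5322 and 6176). In urothelial cells the sums overlapped. The interstitial collagen list had 4 of 24 below and none above, where 10.8% and 8.41% of all genes were, with medians of -0.13 and -0.32. Its sum was 18673 and 11395 CPM in healthy replicates 1 and 2 and 13730 and 10709 in acute replicates 1 and 2. Chronic replicate 1 held 12372, so the sum overlapped between conditions, and the count is not read as a result about the list. The 4 lower genes included Col14a1 and Col15a1. Col14a1 stood at 617 and 756 in healthy replicates 1 and 2, 479.8 and 566 in acute replicates 1 and 2 and 429.8 in chronic replicate 1. Col15a1 stood at 208 and 202 in healthy replicates 1 and 2, 178 and 132 in acute replicates 1 and 2 and 115 in chronic replicate 1.

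**Figure D5:**
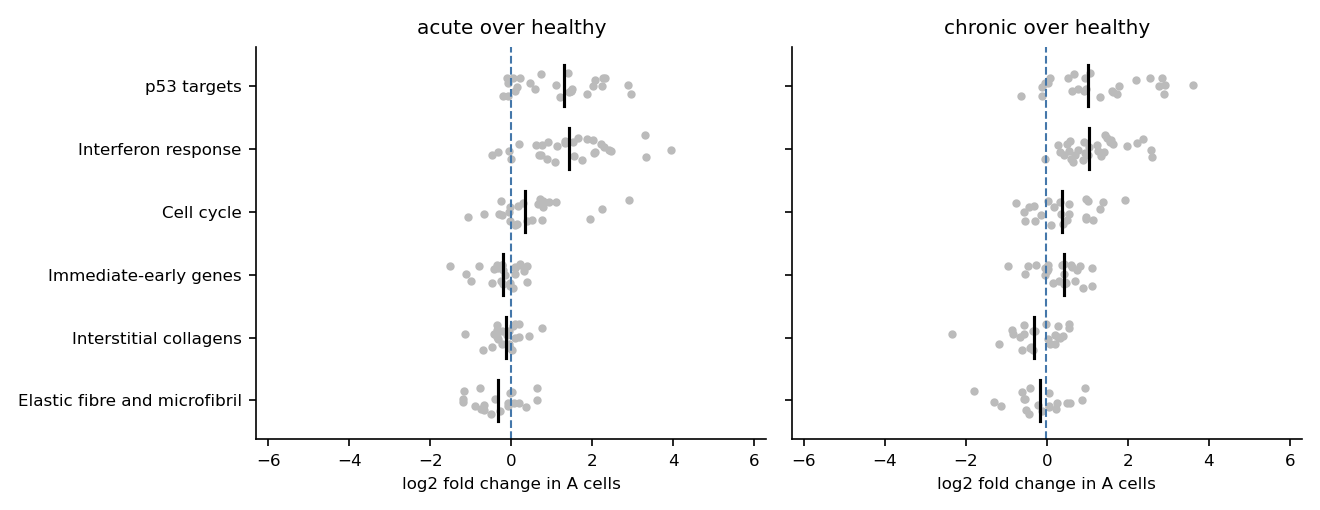
Log2 fold change in A cells for the tested genes of 6 lists, acute over healthy on the left and chronic over healthy on the right, 1 point per gene, with list medians as black bars and the median of all genes as a dashed line. No gene of these lists had an adjusted p under 0.05, and the medians of the p53 list are 1.29 and 1.02.

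Cell cycle, stress and detoxification genes were counted in the same way, and none passed the test. Of 24 cell cycle genes, 10 were above in all injured libraries and none below, where 8.41% of all genes were above and 10.8% below. In B cells 7, in D cells 1 and in urothelial cells 15 of the 24 were above, where 13.3%, 7.22% and 9.33% of all genes were. Summed over the 24, A cells held 2303 and 2013 CPM in healthy replicates 1 and 2 and 2908 and 2096 in acute replicates 1 and 2. Chronic replicate 1 held 2165, so the sum overlapped between conditions, and the 9 cells of chronic replicate 2 held 1591. The gate had kept only cells with at most 2 UMIs of 4 mitotic genes. Among the 10 genes above in A cells the most abundant was Cdk4. It stood at 239 and 237 in healthy replicates 1 and 2, 260.0 and 240.0 in acute replicates 1 and 2 and 253 in chronic replicate 1. Ccnd2 (cyclin D2) stood at 137 and 143 in healthy replicates 1 and 2, 266 and 186 in acute replicates 1 and 2 and 271 in chronic replicate 1. With chronic replicate 2 added 3 of the 24 remained above in A cells, where 3.75% of all genes did. None of the 25 immediate-early genes separated the conditions, with medians of -0.21 and 0.41. This rested on acute replicate 2, since without it, a step that can only raise the count, 11 of the 25 were above both healthy libraries (44%), where 16.6% of all genes were. Gpx3, a secreted glutathione peroxidase, and Ephx1, an epoxide hydrolase, were among 4 of 28 detoxification genes with all injured libraries above, where 8.41% of all genes were, at 126 and 47.6 in healthy replicates 1 and 2, 522 and 317 in acute replicates 1 and 2 and 530.4 in chronic replicate 1 and 34.6 and 28.3 in healthy replicates 1 and 2, 111 and 100.3 in acute replicates 1 and 2 and 145 in chronic replicate 1. The activated myofibroblast list had 4 of 21 below and none above, where 10.8% and 8.41% of all genes were. Neither this count nor that of the detoxification genes is read as a result about its list. Acta2 in A cells stood at 69.3 and 54.7 in healthy replicates 1 and 2, 104 and 85.3 in acute replicates 1 and 2 and 63.2 in chronic replicate 1. Of the ligands, Igf1 stood at 29.6 and 39.1 in healthy replicates 1 and 2, 104 and 38.7 in acute replicates 1 and 2 and 98.4 in chronic replicate 1, Mdk at 86.4 and 72.6 in healthy replicates 1 and 2, 57.8 and 123 in acute replicates 1 and 2 and 72.0 in chronic replicate 1 and Bmp4 at 456 and 459 in healthy replicates 1 and 2, 262 and 431 in acute replicates 1 and 2 and 541 in chronic replicate 1, all overlapping between conditions. Fgf7 ranged over 15.3 to 25.1, Bmp5 over 5.88 to 32.8 and Bdnf over 0 to 5.14. Lum and Clec3b were higher in all 3 injured libraries than in both healthy ones, at 899 and 1055 in healthy replicates 1 and 2, 1094 and 1483 in acute replicates 1 and 2 and 1696 in chronic replicate 1 for Lum and 2215 and 1861 in healthy replicates 1 and 2, 2706 and 2929 in acute replicates 1 and 2 and 2887 in chronic replicate 1 for Clec3b, while the 9 cells of chronic replicate 2 lay below both healthy libraries at 489 and 1009. Chodl (chondrolectin) lay below both healthy libraries in those 3, at 346 and 303 in healthy replicates 1 and 2, 159 and 299 in acute replicates 1 and 2 and 207 in chronic replicate 1.

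Acute and chronic A cells were compared directly as well. Here edgeR called 0 of 10358 genes (0.0%), with 369 at an unadjusted p under 0.05 and 0 by DESeq2. The calls against healthy cells depended on single libraries. Without healthy replicate 1, healthy replicate 2, acute replicate 1 or acute replicate 2, edgeR called 68, 47, 104 and 18 genes for acute CPP and 42, 63, 22 and 43 for chronic CPP, and without healthy replicate 1, healthy replicate 2 or acute replicate 1 it called 23, 24 and 37 genes between the injuries. With 2 libraries or 1 in a group, these counts rest on few residual degrees of freedom.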

How the data were processed

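Single-cell RNA-seq of peeled mouse bladder mucosa (10x 3' v2 chemistry, Illumina NovaSeq) was analysed from 6 tables of UMI counts per gene and cell, which the authors deposited as made with Cell Ranger on mm10 (per the labels). A cut-off last line of the healthy replicate 1 table was skipped, and genes seen in fewer than 8 and 6 cells are missing for healthy replicate 1 and acute replicate 1, but not for the others. Genes were joined by identifier (14450 in all tables, 304 with another symbol in some table).

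From these counts, cells with over 500 genes were classed as described in the results. Classes and gene lists were chosen with earlier results of these data known. UMIs were summed per library and class where at least 20 cells were present, and levels are CPM (counts per 1000000 pooled UMIs) without mitochondrial and ribosomal genes. Sums were tested with edgeR 4.0.16 (quasi-likelihood, TMM, filterByExpr, Benjamini-Hochberg adjustment, limma 3.58.1, R 4.3.3) without the 30 genes of the rule, with library as a block between classes and no covariate between conditions. Differences in the response to CPP were tested as the effect in A cells minus the mean effect in B, C and D cells. The code was tested on simulated data. Shares were compared by exact permutation tests with scipy 1.17.1. Doublets were scored with Scrublet in scanpy 1.11.5 (0.8% per 1000 cells) and removed only as an alternative. Promoters came from RefSeq (GRCm38.p6).

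Alternatives were DESeq2 1.42.0, RLE factors, no filter on low counts, mitochondrial and ribosomal genes kept, at least 10 or 5 cells, no called doublets, a stricter cell filter (1000 genes, 5% mitochondrial UMIs), classes of at least 4 UMIs, a replicate block and each library left out. Named genes were the rule genes and markers, the 8 largest rises and falls per comparison among called genes of at least 50 CPM with the same direction in every library, up to 4 genes per list with the highest level in A cells, and ligands and stromal genes the study names. Outside that rule, Ccnd2, Ccng1, Col14a1, Col15a1, Csf1, Dcxr, Ephx1, Fbn1, Gpx3, Ifit3, Il33, Isg15, Lox, Mfap2, Myl9, Postn, Serpine2, Sfrp1, Slit2, Slit3, Thy1 and Zbp1 were chosen after their values were seen. A split of A cells by Pi16 could not be made and was replaced by Mfap5. A called gene is not reported here.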

Additional observations from a re-analysis of the deposited data

Results flagged for a closer look

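The 9 A cells of chronic replicate 2, with 32694 UMIs in all, entered the fits on A cells only in the alternative of at least 5 cells per library and were compared with the healthy libraries by counting error alone. In all, 19 genes were examined, the 2 called ones and the 17 p53 targets above in the other injured libraries. For 9 genes the exact Poisson lower bound lay above the higher healthy library. Ltc4s measured 214 and Gm26870 91.8 CPM. The same 9 cells held 2202 CPM of 10 macrophage markers, against 35.3 to 496 in A cells of the other libraries, and the part of these in the 9 values was not tested. Of the p53 targets, Cdkn1a measured 2325, Dcxr 367, Ccng1 275, Gdf15 275, Mdm2 184, Trp53inp1 153 and Sesn2 91.8 CPM. The values of Gm26870 and Sesn2 rest on 3 UMIs each. The other 10 were p53 targets. Bax, Phlda3, Bbc3, Zmat3, Tnfrsf10b and Psrc1 lay above the higher healthy library with a lower bound beneath it. Aen measured 30.6 CPM, under the healthy maximum of 45.6, and Polk, Eda2r and Ckap2 had 0 UMIs, with an exact upper bound of 113 CPM.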

How the results depend on the processing

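With 9 A cells in chronic replicate 2, the chronic arm was 1 library, and without chronic replicate 1 no chronic comparison could be fitted. The methods speak of batches, but replicate numbers 1 and 2 are not labelled as a shared batch, and no batch could be fitted. The differences between replicates of healthy and acute A cells correlated with r = 0.297 over 4686 genes, and a fit with a replicate block called 10 genes for acute, 13 for chronic CPP and 0 between the injuries. DESeq2 called 17 and 12 genes for acute and chronic CPP, and at least 5 cells per library, added after the data were seen, called 14 and 9. With no filter on low counts, calls rose to 204 between A and B cells, 102 between A and C cells and 4 in each test of a different response in A cells. Between A and C cells, at least 10 and at least 5 cells per library gave 51 and 45. For A against C cells, no filter also moved the median of all genes to 0.12 on the log2 scale. The cause of these shifts was not tested. The split by Mfap5 was run in a single setting. Leaving out 1 library gave 2 to 104 calls for acute, 2 to 63 for chronic and 0 to 37 between the injuries, 22 to 76 for A against B, 7 to 32 for A against C and 1529 to 2149 for A against D cells, and 0 to 3 and 0 to 5 for the different responses. The share of A cells among gated cells differed from healthy by -31.9 points in acute (-43.4 to -20.3) and -27.7 in chronic bladders (-46.6 to -8.83), and among A and B cells by -33.4 (-39.1 to -27.7) and -51.6 (-65.7 to -37.5). For the called genes with the largest differences, 640 values under an alternative kept their side of the threshold and 77 lost it, 19 for A against B and 58 for A against C cells, and none reversed. That count holds no gene that missed the threshold in the reported fit, and some of these passed it in at least 1 alternative, among them Cdkn1a, Isg15, Dcxr, Zbp1 and Eln. In the fits over conditions, at least 10 cells per library and the removal of chronic replicate 2 left the libraries of the reported fit. These alternatives are included in the counts but could not change a call.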

Other observations

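Hedgehog genes were mostly lower in A than in D cells, with 5 of 8 called lower and 1 higher, where 12.7% and 10.3% of all genes were. Ptch1, the hedgehog receptor and target, ranged over 58.8 to 103 CPM in A cells and 146 to 344 in D cells (log2 fold change -1.49, edgeR adjusted p = 2.05e-10). Gli1, the pathway's inducible transcription factor, ranged over 9.63 to 20.9 CPM in A cells and 15.1 to 44.6 in D cells (log2 fold change -1.26, edgeR adjusted p = 8.79e-07). The gene called higher was Gas1, a hedgehog co-receptor, at 32.2 to 64.2 CPM in A cells and 10.1 to 47.2 in D cells (log2 fold change 0.67, edgeR adjusted p = 0.0205). The retinoid genes had 2 of 8 higher and 4 lower against the same shares. Aldh1a2, which makes retinoic acid, ranged over 8.08 to 37.1 CPM in A cells and 146 to 304 in D cells (log2 fold change -3.47, edgeR adjusted p = 5.36e-16), whereas Aldh1a3, an enzyme of the same step, ranged over 9.67 to 46.5 CPM in A cells and 0 to 4.33 in D cells (log2 fold change 4.03, edgeR adjusted p = 6.47e-11).

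Lipid and adipose progenitor genes had 6 of 14 called higher in A than in D cells and 2 lower, where 10.3% and 12.7% of all genes were. Pparg, the regulator of fat cell formation, ranged over 19.3 to 43.0 CPM in A cells and 10.7 to 21.7 in D cells (log2 fold change 0.78, edgeR adjusted p = 6.68e-04). Fabp5, a fatty acid binding protein, ranged over 50.2 to 180.0 CPM in A cells and 99.6 to 276 in D cells (log2 fold change -0.90, edgeR adjusted p = 5.56e-07). These genes were chosen after their values were seen, and the cells were divided by genes that may vary with them.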
